A study of Mus musculus with 9 samples.

Results

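A set of 10 genes widely used to mark macrophages were followed in whole kidneys of young and old mice: Csf1r, Cx3cr1, Ccr2, Adgre1, Mrc1, Cd68, Lyz2, C1qa, C1qb and C1qc. They were taken by symbol from a list of macrophage genes made when earlier results of these data were known, and all 10 were among the 13081 genes of the expression table. Kidney RNA was sequenced from wild-type mice (C57BL/6, by the study's account) of 3 months (young, n = 4) and 16 months (old, n = 5). Under treatment, the labels give only the age. The study asked which changes seen in mice with an activating Rragc mutation also accompany normal aging, and mutant mice were not analyzed here. The values are normalized counts, that is, reads per gene divided by a size factor for each library, so 1 read was worth 0.819 to 1.18 normalized counts.

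Macrophages of the kidney lie between the tubules and vessels, where they take up dead cells and immune complexes and respond to injury. Some settle before birth and renew themselves in place, and others arrive later from blood monocytes. Both depend on signals through the receptor encoded by Csf1r, whose ligands are the products of Csf1 and Il34. Resident cells of the mouse kidney are known for F4/80 (Adgre1), the fractalkine receptor (Cx3cr1) and the 3 chains of C1q, the molecule that starts the classical complement pathway. Monocytes that enter tissue carry Ccr2, the receptor for the chemokine made from Ccl2.

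The 3 C1q genes lie side by side on the minus strand of chromosome 4 within 18675 bases (GRCm38, GENCODE vM21, not the authors' build). C1qa (136895917 to 136898803) is followed by C1qc (136889804 to 136893065) after 2851 bases and by C1qb (136880129 to 136886187) after another 3616. Start-site sequences are shown for C1qb and C1qc, since C1qc fell with age while the difference of its neighbor C1qb did not pass the test, and for Mrc1, which had the largest rise of the 10 genes. They come from RefSeq promoters (GRCm38.p6), which were used for 7 of the 10 genes, and run 5′ to 3′ on each gene's own strand, leaving out bases inside annotated exons. Capitals mark GAGGAA, a core bound by the macrophage factor PU.1 (Spi1), or its reverse complement TTCCTC.
C1qb, chr4:136886201-136886450, minus strand: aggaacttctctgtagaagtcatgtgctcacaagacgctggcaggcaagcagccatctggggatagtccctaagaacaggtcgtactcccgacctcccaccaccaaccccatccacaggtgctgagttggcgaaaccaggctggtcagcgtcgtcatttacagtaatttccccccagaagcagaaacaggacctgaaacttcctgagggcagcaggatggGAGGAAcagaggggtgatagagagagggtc
C1qc, chr4:136893066-136893164, minus strand: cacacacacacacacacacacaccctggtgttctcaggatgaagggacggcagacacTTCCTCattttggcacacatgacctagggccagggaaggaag
Mrc1, chr2:14229164-14229391, plus strand: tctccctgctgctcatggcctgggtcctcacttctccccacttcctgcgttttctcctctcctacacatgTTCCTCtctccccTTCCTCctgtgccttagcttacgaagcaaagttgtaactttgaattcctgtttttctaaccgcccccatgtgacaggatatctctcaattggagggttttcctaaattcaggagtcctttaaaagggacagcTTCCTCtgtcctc
The motif was found on either strand in the 250 bases of C1qb, C1qc, Mrc1 and Cd68, and 23.3% of 32817 mouse promoters of the same length held it. It was absent from these windows of Lyz2, Cx3cr1 and Ccr2. A match describes the letters only, and binding was not measured.

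Of the 10 genes, Mrc1, Cx3cr1, Adgre1 and C1qa rose with age, C1qc fell, and Csf1r, C1qb, Cd68, Lyz2 and Ccr2 did not pass the test. Adgre1, Mrc1 and Cd68 reached the filter of 10 normalized counts in 4 libraries only through the old libraries, where they were higher. Without any filter, Adgre1 and Mrc1 were still called and Cd68 was not. A gene is called where the Benjamini-Hochberg adjusted p-value from limma, taken over all 12667 genes tested, was under 0.05. The 5 called genes of 10 stand beside a table in which 59.7% of genes were called, 29.2% higher and 30.5% lower in old kidneys. Values of the ages did not overlap for 3 of the 10 (Mrc1, Cx3cr1 and C1qc), against 49.0% of all genes. These shares are close to or under the background, and are not read as a result about the 10 genes. Their median log2 fold change was 0.48, and that of all genes was -0.0027. The summed level was 668 to 718 normalized counts in the young libraries and 725 to 945 in the old ones. In whole tissue, fewer macrophages and less RNA per macrophage cannot be told apart, and neither can more cells and more RNA per cell.

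**Figure D1:**
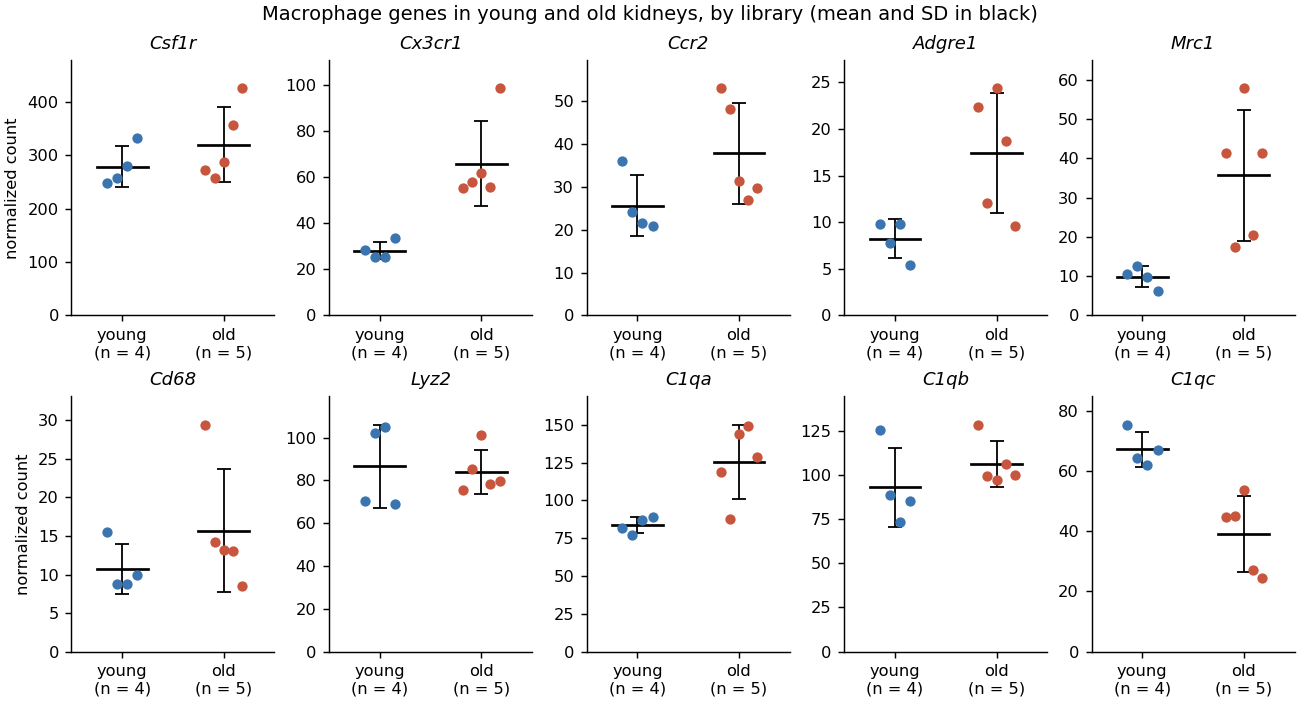
Normalized counts (vertical axes, each from 0) of the 10 genes in 4 young and 5 old kidney libraries, 1 point per library, with the mean and SD of each age in black. The old points lie above all young points for Mrc1 and Cx3cr1 and below all of them for C1qc, and the ages overlap in the other 7 panels.

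The libraries held 4486406 to 6355095 reads over the listed genes, and the 10 genes drew 6 to 401 reads each per library. Kidney identity was clear from the proximal tubule markers Lrp2, Cubn, Slc34a1, Slc5a2, Slc22a6, Slc5a12 and Hnf4a, whose sum was 30650 to 31440 normalized counts in young and 27040 to 35180 in old libraries. Mitochondrial genes took 27 to 29.7% of reads in young and 35.8 to 38.1% in old libraries, and without them, with the rest scaled to equal totals, the median log2 fold change of all genes was 0.14 and 58.6% of calls were higher in old kidneys, in place of 48.9%. Under that scaling the 5 called genes kept their direction and call, and Ccr2 was called higher as well (0.66, adjusted p = 0.0323, limma). The titles carry 2 prefixes, each used for a single age, so handling and age cannot be told apart where they follow it. Nothing beyond the stated number of mice ties a library to an animal, so p-values measure the spread between libraries.

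Csf1r, the receptor tyrosine kinase on which macrophages depend for survival, did not pass the test of a difference between the ages. The young libraries had 247, 258, 279 and 332 normalized counts, and the old libraries had 272, 258, 287, 356 and 425. Old libraries 4 and 5 were above all young ones, and old libraries 1 to 3 lay within the young range. The log2 fold change was 0.18 with a standard error (SE) of 0.14 and a 95% interval of -0.12 to 0.48 (adjusted p = 0.285, limma). A rise of up to 0.48 on the log2 scale is therefore within the interval. The gene lies on the plus strand of chromosome 18 (61100598 to 61132149, GRCm38), and its 3′ end overlaps Hmgxb3 on the opposite strand, which stranded counting keeps apart.

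Cx3cr1, the receptor for fractalkine, rose 2.25-fold. The young libraries had 28.7, 25.3, 25.5 and 33.5 normalized counts (28.2 ± 3.84, SD, n = 4), and the old ones had 55.4, 58, 61.9, 56 and 98.7 (66 ± 18.4, SD, n = 5). Every old library exceeded every young one, and old library 5 stood above the other 4. The log2 fold change was 1.17 (SE 0.21, 95% interval 0.74 to 1.60, adjusted p = 7.96e-05, limma). Cx3cr1 spans 119901616 to 120069879 on the minus strand of chromosome 9, a span that also covers Gorasp1, Csrnp1 and Xirp1 on the same strand. Of the 50-base stretches in the last 500 bases of its transcript, 2.66% also occur in other genes.

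Ccr2, the receptor that draws monocytes out of the marrow and into tissue, had 36, 24.3, 21.6 and 20.8 normalized counts in young libraries. The old libraries had 53, 48.1, 31.4, 27.1 and 29.7. Old libraries 1 and 2 were above the young range, and the other 3 lay inside it. The difference was 0.53 on the log2 scale (SE 0.25, 95% interval -0.01 to 1.06) and did not pass the test (adjusted p = 0.0825, limma), though it did without young library 1 (0.0382) or old library 4 (0.0475). Ccr2 (124101950 to 124113557, plus strand) is also on chromosome 9. The ratio of Ccr2 to Cx3cr1 differed between the ages by -0.64 on the log2 scale, with an adjusted p of 0.185 in an exact permutation test over libraries.

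Adgre1, which encodes the adhesion receptor F4/80, had 9.83, 7.77, 9.8 and 5.43 normalized counts in young libraries (8.21 ± 2.09, SD). In old libraries it had 22.4, 12, 24.3, 18.7 and 9.55 (17.4 ± 6.43, SD). Old library 5 lay within the young range and the other 4 old libraries were above it. The log2 fold change was 0.95 (SE 0.35, 95% interval 0.22 to 1.68, adjusted p = 0.0255, limma). These values rest on 6 to 24 reads, and Adgre1 was tested only because 4 old libraries reached 10 normalized counts, so the filter favored a rise. The adjusted p was 0.0533 without young library 2 and 0.0859 without young library 4. Adgre1 spans 57358691 to 57483527 on the plus strand of chromosome 17.

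Mrc1 encodes the mannose receptor CD206, which binds sugars on microbes and cleared glycoproteins and is a common marker of tissue-repair macrophages. Its young values were 10.7, 12.6, 9.8 and 6.34 normalized counts (9.86 ± 2.63, SD), and its old values were 41.2, 17.5, 57.8, 20.5 and 41.4 (35.7 ± 16.7, SD). All old libraries were above all young ones, with old libraries 2 and 4 nearest to them. Adipoq, an adipocyte marker named after its values were seen, was also highest in old library 3 and lowest in old libraries 4 and 2 among the old ones (71.9, 8.75, 189, 0.933 and 15.9 normalized counts in old libraries 1 to 5), and its part in the Mrc1 result was not tested. In young libraries Adipoq had 0.819, 40.8, 2.94 and 0. Without old library 3 the log2 fold change of Mrc1 was 1.46 (adjusted p = 0.00134, limma). The rise was 3.16-fold, with a log2 fold change of 1.66 (SE 0.34, 95% interval 0.95 to 2.37, adjusted p = 0.000375, limma). Its paralog Mrc2, made mainly by mesenchymal cells, moved the other way with a log2 fold change of -2.34 (adjusted p = 3.08e-06, limma). Of 4 tested paralogs of the 10 genes, none was called higher and 2 were called lower (median -0.16). The other of these, Lamp2 (-0.24), lost its call without young library 1, 2 or 3 or old library 3 (adjusted p = 0.0522 to 0.0668, limma) and with mitochondrial genes left out (-0.10, adjusted p = 0.335). With a pseudocount of 0.1, with DESeq2 and with the length trend removed 3 were called. Lamp1, named after its values were seen, had a difference of 0.22 (adjusted p = 0.0506, limma) and was not called. Mrc2 passed the filter only through the young libraries and was still called without any filter. Mrc1 spans 14229392 to 14332057 on the plus strand of chromosome 2.

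Cd68, a lysosomal membrane protein of phagocytes, had 15.6, 8.75, 8.82 and 9.96 normalized counts in young and 29.5, 14.2, 13.2, 13.1 and 8.49 in old libraries. Young library 1 was above 4 of the 5 old libraries, and old library 1 was well above the rest. With 8 to 25 reads per library the log2 fold change was 0.43 (SE 0.36) and its 95% interval ran from -0.32 to 1.17 (adjusted p = 0.313, limma). The interval holds 0 and also a rise of up to 1.17 on the log2 scale. Cd68 lies on the minus strand of chromosome 11 (69664213 to 69666153).

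Lyz2, the lysozyme of macrophages and neutrophils, had 70.4, 102, 105 and 68.8 normalized counts in young libraries and 75.4, 85.3, 101, 78.4 and 79.6 in old ones. The old values all lay within the young range. The log2 fold change was -0.02 (SE 0.17, 95% interval -0.37 to 0.33, adjusted p = 0.917, limma), and its sign changed with the scaling. Of the 50-base stretches in the last 500 bases of Lyz2 (chromosome 10, 117277331 to 117282321, minus strand), 16.9% are shared with Lyz1, so reads of these paralogs may be mixed or dropped.

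The C1q genes did not move together. C1qa had 81.9, 76.8, 87.3 and 88.7 normalized counts in young kidneys and 119, 87.5, 144, 149 and 128 in old ones, with old library 2 inside the young range and the others above it. It rose 1.47-fold (log2 fold change 0.56, SE 0.16, 95% interval 0.23 to 0.89, adjusted p = 0.00494, limma). C1qb had 125, 88.4, 73.5 and 85.1 in young and 129, 99.5, 97.4, 106 and 99.7 in old libraries, so that young library 1 was above 4 old ones. Its log2 fold change of 0.21 (SE 0.16, 95% interval -0.13 to 0.55) did not pass the test (adjusted p = 0.27, limma).

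C1qc had 75.3, 64.1, 61.8 and 67 normalized counts in young libraries (67.1 ± 5.92, SD). In old libraries it had 44.8, 44.9, 53.8, 27.1 and 24.4 (39 ± 12.7, SD). Every old library was below every young one, and old libraries 4 and 5 were the lowest. C1qc fell to 0.564 of its young level, a log2 fold change of -0.83 (SE 0.22, 95% interval -1.30 to -0.36, adjusted p = 0.00388, limma). The call was lost when a trend with transcript length was taken out of each library (-0.47, adjusted p = 0.0763), under which C1qb was called higher (0.58, adjusted p = 0.00388). The annotated transcripts of C1qa, C1qb and C1qc are 1040, 1088 and 1203 bases long.

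**Figure D2:**
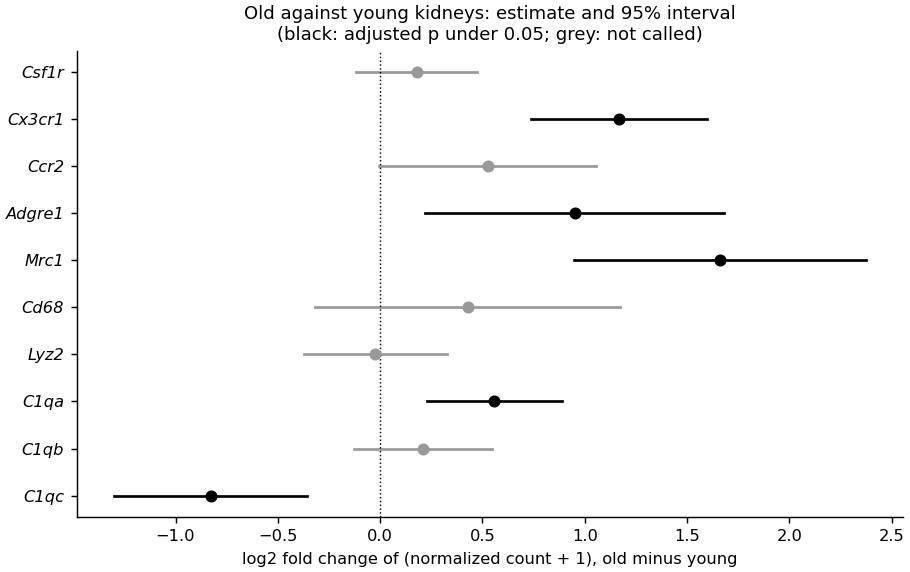
Log2 fold change of each gene between old and young kidneys (horizontal axis, log2 of the normalized count + 1, old minus young) with its 95% interval from limma, black where the adjusted p was under 0.05 and grey elsewhere. Mrc1 has the largest estimate at 1.66 and C1qc, at -0.83, is the only black estimate under 0.

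A ratio of 2 genes within a library depends little on the size factor (only through the added 1, which matters most for low genes), and 10 such ratios, chosen with earlier results of these data known, were compared between the ages as differences of log2(normalized count + 1). An exact two-sided permutation test over the libraries was used, in which the smallest p possible is 0.0159. The ratio of C1qa to C1qc was 0.12 to 0.49 on the log2 scale in young and 0.95 to 2.42 in old libraries. The ages did not overlap, and the ratio was 2.61-fold higher in old kidneys (adjusted p over the 10 ratios = 0.0397, exact permutation test). C1qb to C1qc was likewise higher in every old library, by 2.05-fold (adjusted p = 0.0397, exact permutation test), and both differences stood with the length trend removed (1.41 and 1.05 on the log2 scale, adjusted p = 0.0317, exact permutation test). C1qa to C1qb differed by 0.35 on the log2 scale, with ages that overlapped (adjusted p = 0.238, exact permutation test).

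The same contrast can be read as shares of C1q reads, which are described without a test. Of the 227 to 345 C1q reads in each young library, C1qc made up 26.7, 28, 27.8 and 27.8% (27.6 ± 0.596%, SD, n = 4), and the widest Wilson 95% interval was 22.3 to 33.9%. Of the 212 to 303 C1q reads in each old library it made up 15.3, 19.3, 18.2, 9.57 and 9.66% (14.4 ± 4.62%, SD, n = 5). Old library 2 had the highest old share, with an interval of 14.6 to 25.2%, and old library 4 the lowest, with 6.75 to 13.4%. C1qa held 29 to 39.2% in young and 37.7 to 52.8% in old libraries, while C1qb held 33 to 44.3% and 33 to 44%. Summed over the 3 genes, the level was 223 to 283 normalized counts in young and 232 to 295 in old libraries. These intervals cover counting error only, since reads were not tagged by molecule and PCR copies may be among them.

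**Figure D3:**
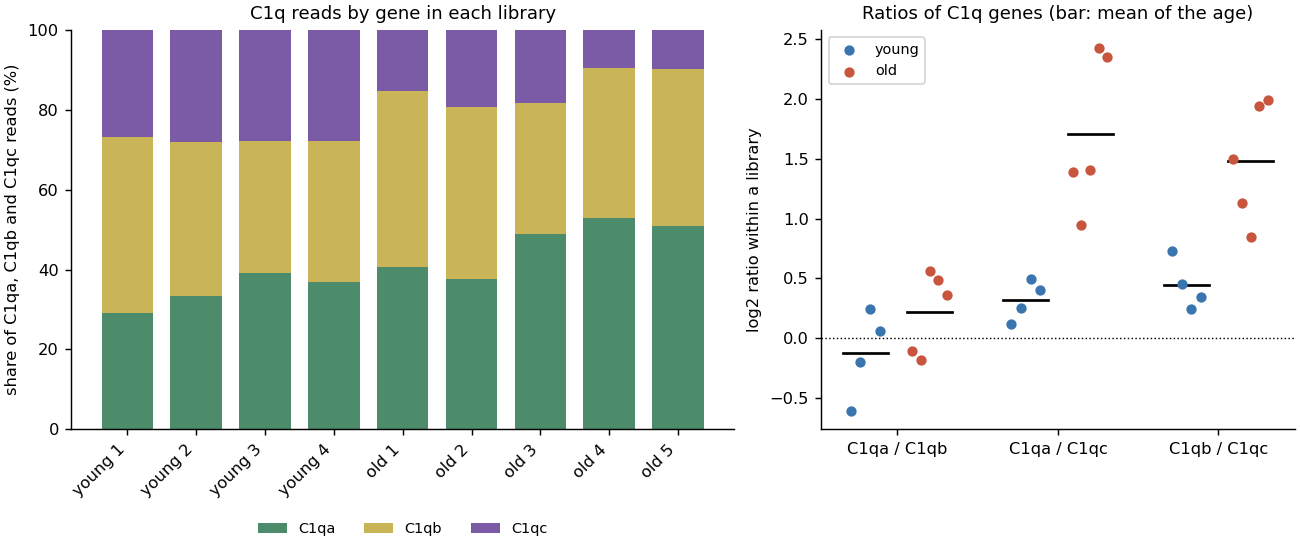
Left, the share of C1qa, C1qb and C1qc in the summed C1q reads of each library (percent). Right, log2 ratios between C1q genes by library, with young points in blue, old points in red and a black bar at the mean of each age. The C1qc share is 26.7 to 28% in the young libraries and 9.57 to 19.3% in the old ones, and the ratios over C1qc do not overlap between the ages.

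Set against Csf1r, Mrc1 and Cx3cr1 were higher in every old library. The ratio of Mrc1 to Csf1r was 2.79-fold higher in old kidneys and that of Cx3cr1 to Csf1r was 1.99-fold higher (adjusted p = 0.0397 for each, exact permutation test). The ratios of C1qa (0.38 on the log2 scale, adjusted p = 0.127), Adgre1 (0.77, 0.204), Cd68 (0.25, 0.651) and Lyz2 (-0.20, 0.494) to Csf1r did not pass the exact permutation test. Without old library 5 those of C1qa (0.48) and Adgre1 (1.06) did (adjusted p = 0.0476, exact permutation test), as did that of C1qa with the length trend removed (0.88, adjusted p = 0.0317). Over the 9 libraries, the C1q genes were not each other's closest match. By the root mean square difference of centered log2 levels, C1qb ranked 3366th and C1qc 10200th of 12666 genes in likeness to C1qa. Among 8151 genes with a mean of at least 50 normalized counts, the closest were Ptpn12 to Csf1r (0.0883), Myo9a to Cx3cr1 (0.152), Ajuba to Ccr2 (0.183), Coq10a to Cd68 (0.276) and Fip1l1 to Lyz2 (0.12). Ctss (0.242), Crk (0.246) and Cul4b (0.258) were about equally close to Adgre1, and C3 (0.393) and Zfp729a (0.395) to Mrc1. For the C1q genes they were Ddx42 (C1qa, 0.112), Rfx7 (C1qb, 0.126) and Arhgef40 (C1qc, 0.115). Of the 30 closest genes among these candidates, 3 for each of the 10, only Ctss and C3 were in any of the lists. Because of the cut at 50, low genes could not appear there, Adgre1, Cd68, Mrc1 and Ccr2 among them. The count therefore does not show that the 10 genes were unlike one another. Among all 12666 genes, Ccr2 ranked 8th in likeness to Cd68 (0.2845), C1qb 57th and Mrc1 10434th.

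The ligands of these receptors were read from lists of genes around the 10. Il34 rose from 160, 112, 108 and 111 normalized counts in young to 228, 190, 233, 240 and 371 in old libraries, with no overlap (log2 fold change 1.02, SE 0.17, adjusted p = 4.03e-05, limma). Csf1 had 30.8 to 46.1 normalized counts in young and 24.1 to 47.6 in old libraries, and its difference of 0.01 did not pass the test (95% interval -0.47 to 0.48, adjusted p = 0.983, limma). Cx3cl1, which encodes fractalkine, fell from 305, 304, 290 and 339 to 82.5, 224, 134, 99.8 and 105 normalized counts. Its log2 fold change was -1.34 (SE 0.20, adjusted p = 1.39e-05, limma), so receptor and ligand of this pair moved in opposite directions. Of the other chemokine genes, Ccl6 rose (1.08) and Cxcl12 fell (-0.73), with 1 of 6 tested called higher and 3 called lower (median log2 fold change -0.27). Ccl2 was not among the genes of the expression table, so it could not be tested.

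**Figure D4:**
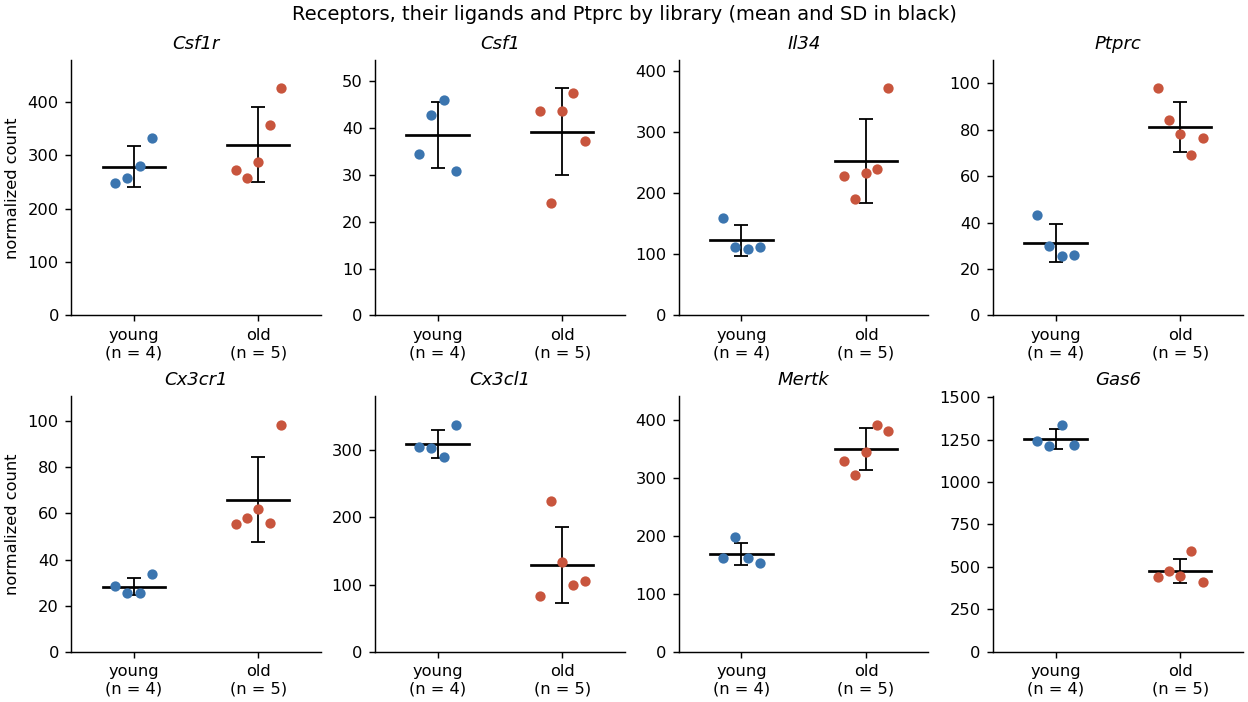
Normalized counts (vertical axes, each from 0) by library for Csf1r and its ligands Csf1 and Il34, the leukocyte marker Ptprc, Cx3cr1 and its ligand Cx3cl1, and Mertk and its ligand Gas6, with the mean and SD of each age in black. Il34, Ptprc, Cx3cr1 and Mertk are higher in every old library, Cx3cl1 and Gas6 are lower in every old library, and Csf1r and Csf1 overlap.

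Mertk, a receptor kinase used to engulf apoptotic cells, rose from 152 to 197 normalized counts in young to 305 to 392 in old libraries (log2 fold change 1.05, adjusted p = 3.28e-07, limma), and its relative Axl rose by 0.85. Gas6, a bridging ligand of both, fell from 1211 to 1340 in young to 411 to 594 in old libraries (-1.41, adjusted p = 2.32e-09, limma). Pros1, another ligand of Mertk, named after its values were seen, had a difference of -0.23 (95% interval -0.60 to 0.14) that did not pass the test (adjusted p = 0.268, limma). Cd14, a coreceptor for bacterial lipopolysaccharide, fell from 15.6 to 17.6 to 2.12 to 6.56 normalized counts (-1.95). It reached the filter only through the young libraries and was still called without any filter. Of 13 tested genes of phagocytic and Fc receptors and their ligands, 2 were called higher, 3 lower (Gas6 among them) and 8 were not called (median 0.12).

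Among 12 tested regulators of myeloid cells, 3 were called higher, 4 lower and 5 were not called (median 0.02). Irf5 (-2.13) and Cebpb (-1.12), transcription factors of inflammatory activation, fell. Spi1, which encodes PU.1, had a difference of 0.24 (95% interval -0.29 to 0.76, adjusted p = 0.434, limma), and Tyrobp, the adaptor of TREM2, one of -0.22 (95% interval -0.73 to 0.30, adjusted p = 0.463, limma). Of 16 other macrophage genes tested, 7 were called higher and 5 lower (median 0.23), among them Apoe (1.21), H2-Aa (-1.21) and Sirpa (-1.40). Of 9 genes whose products work with C1q, 4 were called higher and 2 lower (median 0.35), and edgeR and DESeq2 each called 5 of them. Lrp1, among the 4, lost its call with the length trend removed (0.09, adjusted p = 0.523, limma). C3, the central complement component, rose from 16.7 to 31.1 normalized counts in young to 60.2 to 140 in old libraries (1.85), and C4b rose by 1.72. C1qbp, a mitochondrial protein that also binds C1q, fell by 0.83 on the log2 scale (adjusted p = 2.9e-06, limma), and the other gene called lower was C1s1 (adjusted p = 0.0477, named after its values were seen). These genes are also expressed by tubular, vascular or mesenchymal cells to varying degrees, and whole tissue does not tell which cells held the RNA.

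Markers of other cells moved as well, and their part in the results above was not tested. Ptprc, which encodes the leukocyte antigen CD45, rose from 25.5 to 43.4 normalized counts in young to 69 to 97.8 in old libraries (log2 fold change 1.37, adjusted p = 6.12e-06, limma). Over 7 tested leukocyte markers 2 were called higher (Ptprc and Arhgdib) and 1 lower (median -0.15), with sums of 322 to 379 in young and 351 to 475 in old libraries. The one that was lower, Coro1a (-0.68, adjusted p = 0.0393, limma), lost its call in 9 of 17 alternatives, edgeR and DESeq2 among them, with adjusted p-values of 0.0505 to 0.216. All 3 tested B and plasma cell markers (Ighm, Igkc and Jchain) were called higher (median 2.15), with sums of 241 to 695 and 910 to 3231. Of 3 monocyte markers, 1 was called higher (Ly6c2, which passed the filter only through the old libraries and lost its call without young library 4, adjusted p = 0.0532) and 2 lower (Plac8 and Ace, the latter also made by proximal tubule), with sums of 359 to 434 and 130 to 176. Neither of 2 tested neutrophil markers was called (sums 16.5 to 28.7 and 12 to 28.3), nor was the dendritic cell marker Zbtb46 (33.5 to 49 and 20.8 to 55.4), while the T cell marker Trac was called higher (sums of its list 4.86 to 19.9 and 10.6 to 41). Trac (1.01) lost its call without young library 1, 2 or 3 or old library 2, 3 or 4, with adjusted p-values of 0.0519 to 0.109.

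Among cells of the tissue itself, 4 of 7 endothelial markers were called higher and none lower (median 0.51, sums 1358 to 1488 in young and 1686 to 1994 in old libraries). With the length trend removed 2 of the 7 were called, Kdr (0.26, adjusted p = 0.0502, limma) and Prox1 (0.18, adjusted p = 0.491) being lost. Prox1 also lost its call without young library 1 or 2 or old library 3 (adjusted p = 0.052 to 0.0863). For fibroblasts 1 of 5 was called higher and 3 lower (1357 to 1672 and 779.8 to 1344), and for proximal tubule 2 of 7 were called higher and 4 lower. The medians were -0.47 and -0.375. Col1a1, among the 3 fibroblast markers that were lower, lost its call with mitochondrial genes left out (-0.33, adjusted p = 0.0716, limma) and without young library 4 (adjusted p = 0.0598). Lrp2, of the 2 proximal tubule markers that were higher, lost its call with the length trend removed (0.20, adjusted p = 0.0705). Of 3 tested adipocyte markers 1 was called lower (Fabp4), though the median was 1.10 and 2 of 3 differences were positive, and a second was called by edgeR, with the length trend removed and without old library 4. The summed adipocyte level was 271 to 1427 in young and 56 to 1033 in old libraries, highest in young library 2 and in old library 3. Fabp4 alone gave 269 to 897 in young and 54.1 to 424 in old libraries. The sum therefore depends much on Fabp4, and whole tissue does not tell which cells held its RNA.

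**Figure D5:**
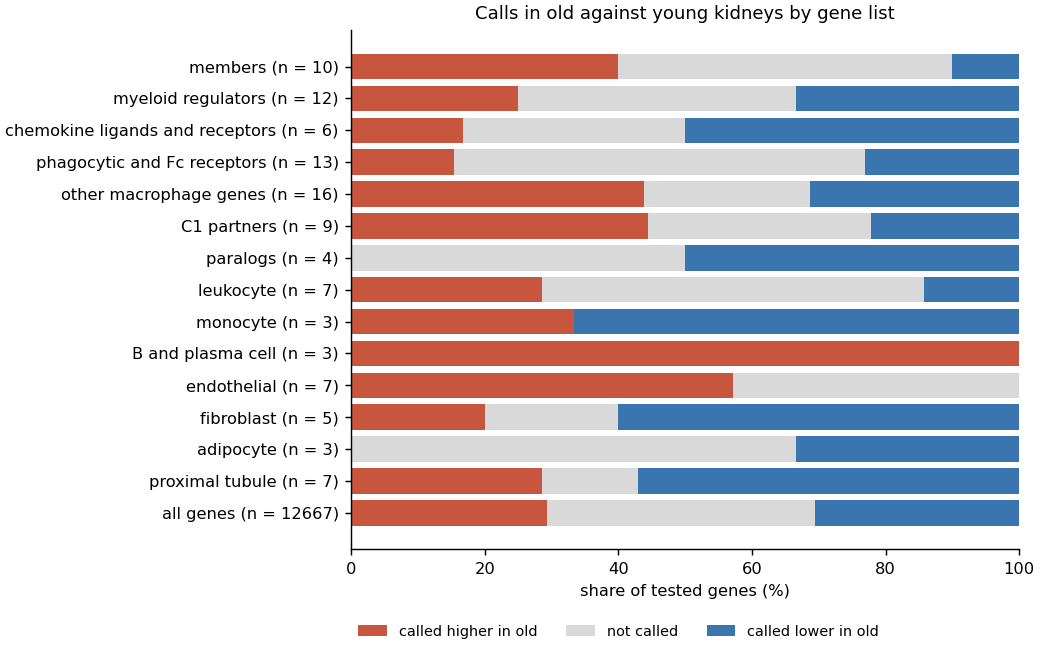
Share of tested genes (percent, horizontal axis) called higher in old kidneys (red), called lower (blue) or not called (grey) for each list with at least 3 tested genes, with the number tested in brackets and all 12667 genes in the bottom bar. The 10 macrophage genes (top bar, named members) have 4 called higher and 1 lower, beside 29.2% and 30.5% of all genes.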

How the data were processed

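Libraries were made, per the labels, from 500 ng of kidney RNA by oligo(dT) priming at transcript 3′ ends (a stranded kit, whose version differs between labels and the study's methods) and sequenced as single reads. The authors aligned them to GRCm39 (the submitters' notes list TopHat2 2.0.10 and Bowtie 1.0.0), counted them by strand with HTSeq 0.6.1 and normalized them with DESeq or DESeq2 (the sources differ). The deposited signal is a normalized read count per gene, and 100% of values were whole multiples of 1 read within 0.01. Since reads come from 3′ ends, levels are not compared between genes.

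Genes were tested in R 4.3.3 with limma 3.58.1 (trended eBayes) on log2(normalized count + 1), old against young, for genes with at least 10 normalized counts in at least 4 libraries, adjusted over all of them. All 10 macrophage genes passed this filter. Of the other named genes, C4b, Ly6c2 and Trac passed it only through the old libraries and Cd14, Irf5 and Mrc2 only through the young ones, and all 6 were called without any filter too. Fold changes on this scale understate those of low genes. Ratios were tested with SciPy 1.17.1. Library numbers follow the order of listing. Alternatives were pseudocounts of 0.1 and 5, no filter, a mean of at least 100, TMM factors, mitochondrial genes left out, edgeR 4.0.16 and DESeq2 1.42.0 on whole reads, and each library left out. Removal of a length trend by lowess (12856 of 13081 genes with a length) was chosen after seeing the data. The 10 genes, lists and ratios were chosen with earlier results of these data known. Named from each list were the 4 called genes with the largest moderated t, and Ptprc, Csf1, Il34, Tyrobp, Spi1, Cx3cl1, Ccl2 and Lyz1, where tested. Not all are named, and some are not reported here. For likeness the 3 closest genes were found.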

Additional observations from a re-analysis of the deposited data

Results flagged for a closer look

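In old library 5, Cx3cr1 had a log2 level of 6.64 (log2 of the normalized count + 1), while the other 4 old libraries lay between 5.82 and 5.97. The gap to its nearest neighbor was 0.809 of the range of the 5 libraries, past Dixon's limit. Such a gap was looked for in 40 groups and found in 1, where chance at 1 in 20 would give about 2. Without this library Cx3cr1 was still called higher in old kidneys (log2 fold change 1.02, adjusted p = 0.000218, limma).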

How the results depend on the processing

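Of the 5 calls among the 10 genes, those of Mrc1, Cx3cr1 and C1qa were kept under every alternative in which they were tested, with log2 fold changes of 1.37 to 1.87, 1.02 to 1.31 and 0.49 to 0.94. Adgre1 (0.72 to 1.13) was not called without young library 2 (0.94) or young library 4 (0.79), and could not be tested without old library 1, 2, 3 or 4. C1qc (-0.96 to -0.47) was not called with the length trend removed (-0.47), which left 0 called lower, and the cause was not tested. Ccr2 was called in 3 alternatives. edgeR and DESeq2 on whole reads each called 5 of the 10. Requiring a mean of 100 normalized counts tested fewer genes: 1 of the 10 was called, 1 higher and 0 lower, beside 4101 genes in all (2040 higher, 2061 lower), 22 function-list genes in place of 36 and 16 cell-type genes in place of 25.

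With 1 library left out, 4 to 6 of the 10 were called (3 to 5 higher, 1 to 1 lower), beside 6756 to 7561 genes (3362 to 3677 higher, 3388 to 3884 lower), 30 to 35 function-list genes and 22 to 25 cell-type genes. The ratios called then ran from 0 to 6, but with smallest exact p-values of 0.0357 (3 against 5) and 0.0286 (4 against 4) 4 ratios cannot pass, so this says nothing of stability; 6 passed without old library 5. The 4 called ratios kept their direction, at 1.21 to 1.57 for C1qa to C1qc, 0.91 to 1.20 for C1qb to C1qc, 1.19 to 1.68 for Mrc1 to Csf1r and 0.89 to 1.08 for Cx3cr1 to Csf1r.

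Signs changed only for values that were not called. Lyz2 was 0.12 with mitochondrial genes left out, 0.32 with the length trend removed and ranged from -0.12 to 0.0782 over the leave-one-out fits, above 0 without young library 2 or 3 or old library 1 or 4. Csf1 was -0.0488 with the length trend removed and ranged from -0.0924 to 0.167 over the leave-one-out fits, below 0 in 5 of them. Tyrobp was 0.23 and Lyz2 to Csf1r 0.26 with the length trend removed, and Cd68 to Csf1r ranged from -0.0485 (without old library 1) to 0.53 over the leave-one-out fits. Leaving out mitochondrial genes moved the share of calls that were higher from 48.9% to 58.6%. No paired analysis was possible because the titles share no replicate numbers between ages. Depth limits Adgre1, Cd68 and Mrc1 most, with 6 to 57 reads each.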
